A study of Mus musculus with 12 samples.

Results

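RNA of Tet2 knockout (KO) and wild type (WT) leukemic cells was compared before any exposure to actinomycin D, an inhibitor of transcription. The comparison uses 4 of the 12 libraries of the series, 2 of WT and 2 of KO cells at 0 h of the 5 µg/ml treatment. The other 8 libraries, taken at 4 h and 8 h, entered the fit and were used to see which differences recurred. All libraries came from mouse NRAS/AE9a cells, an acute myeloid leukemia line that by its name carries NRAS and the AML1-ETO9a fusion, so both genotypes share these oncogenes. Both were grown in RPMI medium with the cytokines SCF (50 ng/ml), IL-3 and IL-6 (10 ng/ml each) and under selection with G418 (1 mg/ml) and puromycin (2 µg/ml). The labels name no second WT or KO line and do not say how Tet2 was disrupted, so the genotype cannot be told apart from any other difference between these cells. Nothing says that the 2 libraries of a genotype were separate cultures. The p-values therefore rest on the scatter between libraries alone, and that scatter may be technical.

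Values are TPM, which give each gene's share of a library's transcripts after correction for length, and the sequencing depth is unknown. Of 24589 genes in the deposited table, 11152 had at least 1 TPM in at least 2 of the 12 libraries and were tested on the log2(TPM + 1) scale. This scale understates the change of low genes. A gene is called where the limma adjusted p (Benjamini-Hochberg over all tested genes) was below 0.05. Errors of log2 changes are standard errors (SE) with n = 2 against 2, and changes are KO minus WT.

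TET2 is a dioxygenase that converts 5-methylcytosine to 5-hydroxymethylcytosine in DNA and can also act on 5-methylcytosine in RNA. Loss-of-function mutations of TET2 are frequent in clonal haematopoiesis and in myeloid leukemia. In normal myelopoiesis, granule proteins appear in order: myeloperoxidase and the serine proteases of primary granules in promyelocytes, then lactoferrin, cathelicidin and other proteins of secondary and tertiary granules, then the receptors of mature phagocytes. Interferons act through JAK kinases and transcription factors that bind interferon-stimulated response elements in promoters of antiviral genes.

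At 0 h, 2871 of the 11152 tested genes (25.7%) were called, 1593 higher in KO cells (14.3%) and 1278 lower (11.5%). Changes of at least 2-fold were more often decreases, with 359 genes lower and 168 higher, and 52 genes fell while 21 rose by at least 2 on the log2 scale. The median log2 change of all tested genes was 0.06. Which direction prevailed changed with the WT library left out: 42.3% of the calls were higher without WT replicate 1 (977 higher, 1330 lower) and 66.0% without WT replicate 2 (1680 higher, 864 lower). Fewer genes were called without KO replicate 1 (835 higher, 898 lower) or KO replicate 2 (864 higher, 846 lower). Across genes the WT libraries correlated with a Pearson r of 0.992 and the KO libraries with 0.995, against 0.969 to 0.972 between genotypes, as a description over genes that share a library. The WT libraries differed from each other with transcript length: the median difference of WT replicate 1 minus replicate 2 was 0.11 on the log2 scale for transcripts under 600 nt and -0.19 for those of 4000 nt and over, while KO replicates differed by -0.02 and 0.02 in these classes.

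The cells carried the markers of myeloid leukemia in both genotypes. All 9 marker genes of the labelled cell type (Mpo, Elane, Prtn3, Ctsg, Cd34, Kit, Spi1, Cebpa and Ptprc) passed the filter, and their sum was 2967 and 3337 TPM in WT and 3031 and 3018 TPM in KO libraries. Defining markers of lymphoid, stromal and dendritic cells were at or near 0. All 5 B cell markers, 7 stroma and endothelium markers and 3 dendritic cell markers were under 1 TPM in every 0 h library, as were 6 of 7 T and NK cell markers, with Cd3d, Cd3e and Cd3g listed at 0. Nkg7 was the exception, at 12.2 and 7.0 TPM in WT and 19.4 and 29.4 TPM in KO cells. Mast cell and megakaryocyte markers were expressed and are described with their lists. In bulk RNA, fewer cells of a kind and less RNA per cell cannot be told apart.

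Tet2 mRNA was lowered but not absent in the libraries labelled KO. It had 13.05 and 16.03 TPM in WT and 10.2 and 10.2 TPM in KO cells. Both KO libraries thus lay below both WT libraries, as in 2803 of the 11152 tested genes. The log2 change was -0.47 ± 0.13 (limma adjusted p = 0.0167). A gene-level value cannot tell which exons were disrupted, and this call was lost without WT replicate 2, KO replicate 1 or KO replicate 2 (adjusted p up to 0.105). The gene lies on chromosome 3 from 133463679 to 133545139 on the minus strand of GRCm38. Its paralog Tet3 had 19.5 and 23.1 TPM in WT and 18.6 and 18.9 TPM in KO cells and was not called (adjusted p = 0.351). Tet1 was below the filter. Of 12 tested genes of TET enzymes, their partners and DNA methyltransferases, Idh2 and Cxxc5 were higher in KO, and 1 gene was higher whichever 0 h library was left out. Idh2, a mitochondrial isocitrate dehydrogenase whose product 2-oxoglutarate is a TET cofactor, had 127 and 144 TPM in WT and 181 and 194 TPM in KO cells (0.47 ± 0.08, adjusted p = 0.0012). Over all tested genes, 14.3% were called higher.

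**Figure D1:**
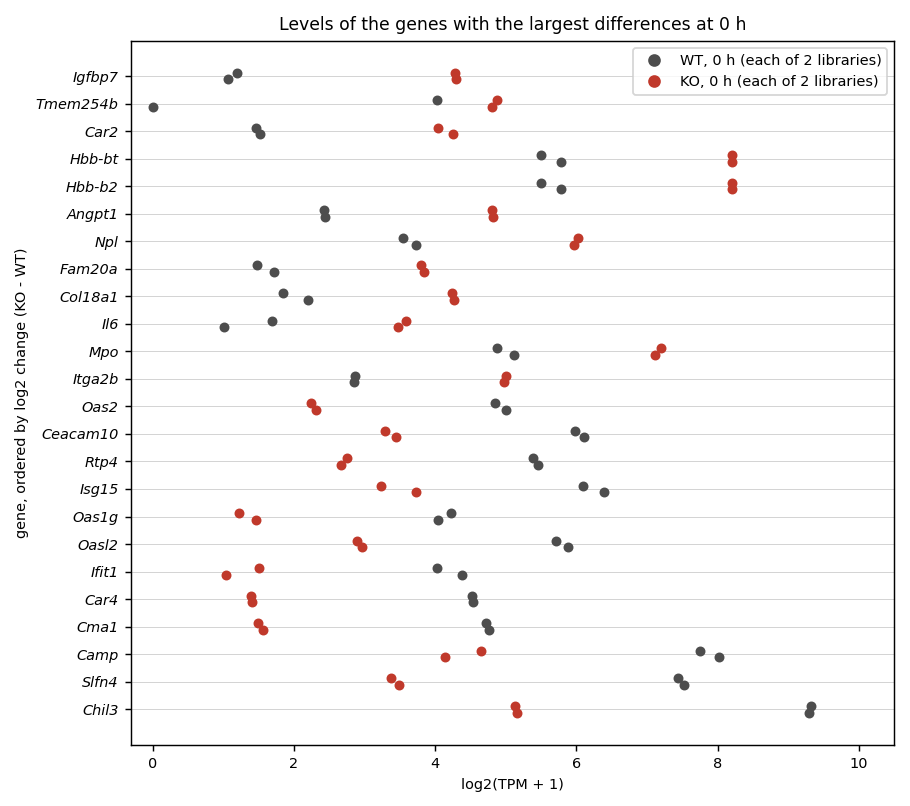
Level of the 12 genes with the largest rise and the 12 with the largest fall at 0 h among genes with a mean of at least 5 TPM, as log2(TPM + 1), with 1 point for each of the 2 WT (grey) and 2 KO (red) libraries. The points of a genotype lie far apart for Tmem254b, which had 15.3 TPM in WT replicate 1 and 0 in WT replicate 2. Smaller gaps appear in other genes, such as Il6 in WT cells and Camp and Isg15 in KO cells.

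Among called genes with a mean of at least 5 TPM, the largest fall on the log2(TPM + 1) scale was that of Chil3, a chitinase-like protein secreted by myeloid cells. It had 639 and 626 TPM in WT and 34.2 and 34.9 TPM in KO cells, 18.3-fold lower by the means (-4.16 ± 0.09, adjusted p = 5.15e-11). Slfn4, a Schlafen gene of monocytes and neutrophils, fell as far, from 173 and 183 TPM to 9.34 and 10.2 TPM (18.2-fold lower). Car4, a membrane-bound carbonic anhydrase, went from 21.9 and 22.3 to 1.62 and 1.65 TPM (-3.13 ± 0.14). The cytosolic enzyme of the same family, Car2, moved the other way, from 1.76 and 1.88 to 15.4 and 18.1 TPM (2.65 ± 0.18). In each of these genes the KO libraries agreed closely and lay far from both WT libraries. The genes were chosen for large changes without overlap of the groups, so this follows in part from the choice.

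The largest rise by the same rule was that of Igfbp7, a secreted binding protein of the IGF family, with 1.30 and 1.10 TPM in WT and 18.4 and 18.6 TPM in KO cells (15.4-fold higher, log2 change 3.15 ± 0.13, adjusted p = 1.41e-08). Angpt1, the TIE2 ligand angiopoietin 1, had 4.37 and 4.41 TPM in WT and 26.9 and 27.3 TPM in KO cells. Npl, a sialic acid lyase, rose from 10.7 and 12.2 to 63.8 and 61.5 TPM. Il6, which was also supplied in the medium as protein, had 2.22 and 1.02 TPM in WT and 11.1 and 10.1 TPM in KO cells (2.18 ± 0.36, adjusted p = 0.000813). The adult beta-globin genes Hbb-b2 and Hbb-bt had identical values in every library, 44.0 and 54.0 TPM in WT and 294 and 293 TPM in KO cells, so they cannot be told apart. Of 14 tested erythroid genes 7 rose and 2 fell, with a median of 0.37. Besides Hbb-b2, Hbb-bt and Car2 the rises were those of Gata1, an erythroid and mast cell transcription factor (0.85 and 0.81 against 2.37 and 2.25 TPM), the transferrin receptor Tfrc (0.66), Gypc (0.60) and Xk (0.57). The call of Gypc was lost without WT replicate 1 or either KO library, and that of Xk without WT replicate 1 or KO replicate 2. The defining markers Alas2 and Hbb-bs were listed at 0 in all 4 libraries. The rise of Tmem254b (2.83 ± 0.84) depended on WT replicate 2, since it was 0.81 without that library and 4.84 without WT replicate 1.

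**Figure D2:**
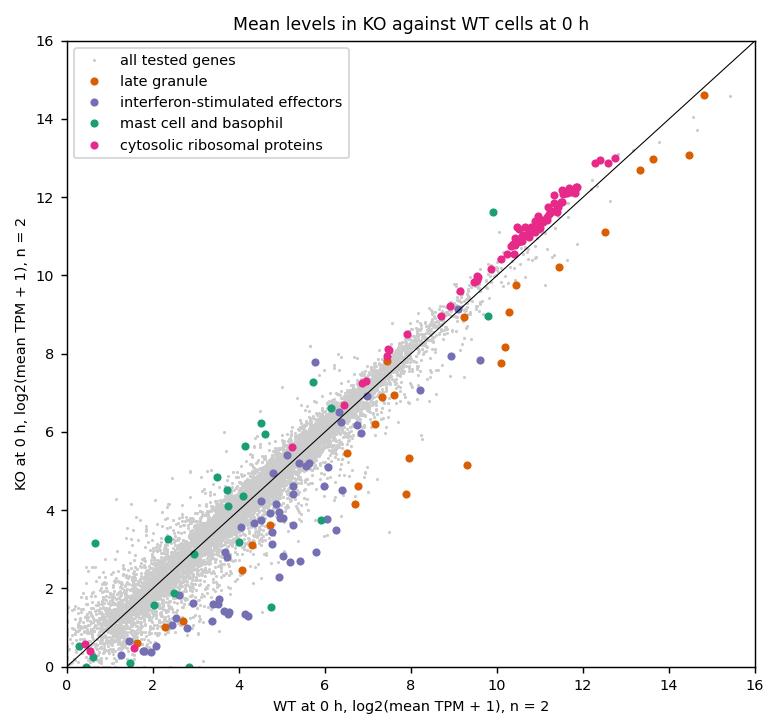
Mean TPM of each tested gene in KO (y axis) against WT cells (x axis) at 0 h, both as log2(mean TPM + 1) over 2 libraries, with 4 gene lists in colour and the line of equality. Late granule and interferon-stimulated genes lie mostly below the line, most ribosomal protein genes just above it, and mast cell and basophil genes on both sides.

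Genes of late neutrophil granules and mature neutrophils were nearly all lower in KO cells. Of 27 tested members, 25 fell and 1 rose (Adam8, 0.38), with a list median of -1.20 against 0.06 for all genes. Camp, the antimicrobial peptide cathelicidin, had 213 and 257 TPM in WT and 24.1 and 16.6 TPM in KO cells (-3.48 ± 0.15, adjusted p = 2.06e-08). Ngp, neutrophilic granule protein, had 1025 and 1155 TPM in WT and 223 and 210 TPM in KO cells. Lyz2, the lysozyme of myeloid cells, was at 21359 and 24118 TPM in WT and 8811 and 8629 TPM in KO cells. Ltf, lactoferrin, changed less, from 131 and 152 to 72.7 and 72.2 TPM (-0.95 ± 0.08). In all of these the groups did not overlap, as in all 1278 genes called lower. The collagenase Mmp8 also kept much of its level, with 1294 and 1470 TPM in WT and 882 and 842 TPM in KO cells.

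Proteins of primary granules divided. Mpo, myeloperoxidase, had 28.5 and 33.5 TPM in WT and 146 and 137 TPM in KO cells (2.16 ± 0.12, adjusted p = 8.27e-08). Elane, neutrophil elastase, ran opposite, with 89.0 and 96.3 TPM in WT and 29.1 and 27.6 TPM in KO cells (-1.67 ± 0.12, adjusted p = 9.94e-07). Of the other serine proteases of these granules, Prtn3 fell from 516 and 537 to 394 and 372 TPM, and Ctsg, cathepsin G, was not called, with 1550 and 1771 TPM in WT and 1521 and 1571 TPM in KO cells. Over the 12 tested members, 4 rose and 4 fell, and the median was 0.01.

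The calprotectin subunits S100a8 and S100a9 were among the most abundant transcripts of the cells. S100a9 had 26964 and 24776 TPM in WT and 13320 and 13522 TPM in KO cells (-0.95 ± 0.06, adjusted p = 2.69e-07). S100a8 differed between the WT libraries themselves, at 55840 and 32177 TPM, against 24816 and 24087 TPM in KO cells, and its change was -0.40 without WT replicate 1 and -1.19 without WT replicate 2. S100a4, a related protein known for its link to cell motility, rose from 513 and 513 to 824 and 922 TPM. Genes called lower held 29.7% and 27.1% of all TPM in the WT libraries and 16.9% and 16.7% in the KO libraries. Genes called higher held 31.7% and 31.3% in WT and 42.1% and 42.4% in KO libraries. Both sets were chosen by these same libraries, so the directions of these shares follow from the choice. Of the 9 tested genes of the phagocyte NADPH oxidase, the source of the respiratory burst, 6 fell and 0 rose, led by the catalytic subunit Cybb (25.3 and 25.9 against 10.3 and 11.7 TPM, -1.15 ± 0.10).

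The promoters of 2 late granule genes that fell and of Mpo, which rose, are printed as the coding strand 5′ to 3′, 250 bases before to 50 bases after the RefSeq start (GRCm38.p6). Capitals mark matches on either strand to TTGCNNAA, a loose form of the C/EBP site. C/EBP factors, of which Cebpe is required for secondary granules, bind such sites. Ltf lies at chr9:111019042-111019341 on the plus strand, Ngp at chr9:110419558-110419857 on the plus strand and Mpo at chr11:87793534-87793833 on the plus strand.
Ltf: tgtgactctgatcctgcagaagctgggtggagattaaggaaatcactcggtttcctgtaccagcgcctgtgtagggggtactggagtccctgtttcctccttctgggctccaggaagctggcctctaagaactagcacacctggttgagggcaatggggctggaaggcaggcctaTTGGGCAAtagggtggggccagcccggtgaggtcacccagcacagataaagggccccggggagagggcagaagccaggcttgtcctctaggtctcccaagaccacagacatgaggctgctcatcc
Ngp: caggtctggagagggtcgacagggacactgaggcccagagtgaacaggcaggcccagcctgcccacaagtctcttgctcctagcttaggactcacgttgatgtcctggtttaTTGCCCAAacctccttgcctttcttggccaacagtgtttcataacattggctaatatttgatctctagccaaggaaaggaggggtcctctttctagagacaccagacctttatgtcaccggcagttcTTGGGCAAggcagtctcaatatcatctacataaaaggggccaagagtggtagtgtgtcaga
Mpo: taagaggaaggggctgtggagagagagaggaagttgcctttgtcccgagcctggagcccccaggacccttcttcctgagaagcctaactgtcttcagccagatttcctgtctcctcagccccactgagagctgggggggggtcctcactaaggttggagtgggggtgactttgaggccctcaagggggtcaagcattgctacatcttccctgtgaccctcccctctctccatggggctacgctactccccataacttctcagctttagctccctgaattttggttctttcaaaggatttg
Ltf has 1 match, starting 75 bases before the start, Ngp has 2, at 138 and 11 bases, and Mpo has 0 in this window. Of 22 late granule genes with a promoter entry, 11 (50.0%) held the motif, against 10.2% of the 8686 tested genes with an entry and 10.8% of all 32851 RefSeq windows. Such matches describe the letters of the window and show no binding, and a part of C/EBP factors in these changes was not tested. At the level of the factors, Cebpe had 115 and 122 TPM in WT and 71.9 and 71.5 TPM in KO cells (-0.72 ± 0.14, adjusted p = 0.00267). Cebpd fell from 63.8 and 68.3 to 34.8 and 35.3 TPM. Cebpa, which acts earlier in granulocyte commitment, rose from 43.5 and 46.2 to 72.7 and 69.3 TPM (0.65 ± 0.12, adjusted p = 0.00146).

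Mast cell and basophil genes moved in both directions, 10 of 24 tested members higher and 7 lower. Cpa3, the mast cell carboxypeptidase, had 911 and 1005 TPM in WT and 3216 and 3042 TPM in KO cells (1.71 ± 0.08, adjusted p = 3.11e-08). The basophil protease Mcpt8 rose from 50.2 and 53.02 to 155 and 152 TPM, and Prss34, another basophil protease, from 9.39 and 11.2 to 27.6 and 27.5 TPM. Il1rl1, the receptor of IL-33, and Cd200r3, an activating receptor of these cells, both rose (1.5 ± 0.09 and 1.71 ± 0.10). Granzyme B (Gzmb) had 0.72 and 0.41 TPM in WT and 8.16 and 7.57 TPM in KO cells.

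Other mast cell proteases were lower. The chymase Cma1 had 25.3 and 26.2 TPM in WT and 1.81 and 1.96 TPM in KO cells (-3.21 ± 0.13, adjusted p = 1.38e-08). Mcpt4, another chymase, had 6.15 and 6.22 TPM in WT while both KO libraries list it at 0. The tryptase Tpsb2 had 51.6 and 65.6 TPM in WT and 14.4 and 10.6 TPM in KO cells. Kit, the receptor of SCF, which was present in the medium, fell from 14.03 and 16.03 to 8.10 and 8.13 TPM (-0.81 ± 0.13). The list therefore divided by member, with a median of 0.27.

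Monocyte and macrophage genes were lower in 18 of 29 tested members and higher in 3. Csf1r, the receptor of macrophage colony-stimulating factor, had 150 and 184 TPM in WT and 61.6 and 62.4 TPM in KO cells (-1.41 ± 0.09). Ly6c2, a surface marker of inflammatory monocytes, fell from 3086 and 3220 to 1366 and 1306 TPM. The microglial and macrophage lipid receptor Trem2 fell from 84.0 and 87.0 to 30.2 and 27.1 TPM. The members that rose did so little: Ccr2 by 0.38, Adgre1, which encodes F4/80, by 0.32 and Spp1, osteopontin, by 0.23, and 1 of the list was higher without WT replicate 1, KO replicate 1 or KO replicate 2.

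All 8 tested receptors for immunoglobulin fell, with a median of -0.71, and 5 were called without WT replicate 2 or without KO replicate 2. Of 34 innate sensors 21 fell, including the toll-like receptors Tlr1 (5.64 and 7.71 against 1.43 and 1.36 TPM) and Tlr2 (136 and 147 against 58.7 and 60.9 TPM) and the beta-glucan receptor Clec7a (84.2 and 90.4 against 23.1 and 19.7 TPM). The adaptor Myd88 was not called (-0.09). Among the 18 inflammasome genes 12 fell and 0 rose, with 7 lower without KO replicate 2. The interleukin-1 genes of the list were among those that fell. Il1a had 6.15 and 5.61 TPM in WT and 0.68 and 0.80 TPM in KO cells (-1.98 ± 0.24). Il1b had 13.7 and 11.9 TPM in WT and 1.18 and 2.26 TPM in KO cells (-2.37 ± 0.25), and the receptor antagonist Il1rn had 78.9 and 83.8 TPM in WT and 14.8 and 12.1 TPM in KO cells (-2.51 ± 0.10). Agonists and the antagonist of the same receptor were thus all lower.

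Complement genes were lower in 6 of 12 tested members, with C3, the central component, at 546 and 650 TPM in WT and 171 and 165 TPM in KO cells, and factor B (Cfb) at 10.01 and 11.1 against 0.70 and 1.05 TPM. Cd59a, which blocks the terminal complex on the cell's own membrane, was the member that rose, from 1.80 and 1.40 to 9.46 and 8.02 TPM. Lysosomal genes were lower in 34 of 54 and higher in 2, with a median of -0.37. Psap, the precursor of the saposins, had 2072 and 2363 TPM in WT and 869 and 864 TPM in KO cells (-1.35 ± 0.06). Cathepsin S (Ctss), which trims the class II invariant chain, fell from 371 and 398 to 124 and 123 TPM, whereas cathepsin D (Ctsd) was not called (-0.15). Of 43 iron and NRF2 genes 16 fell and 7 rose, with a median of -0.06. The falls included Fth1, the ferritin heavy chain, from 3592 and 3830 to 1812 and 1752 TPM, and the endosomal metal transporter Slc11a1 (-1.93 ± 0.30).

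**Figure D3:**
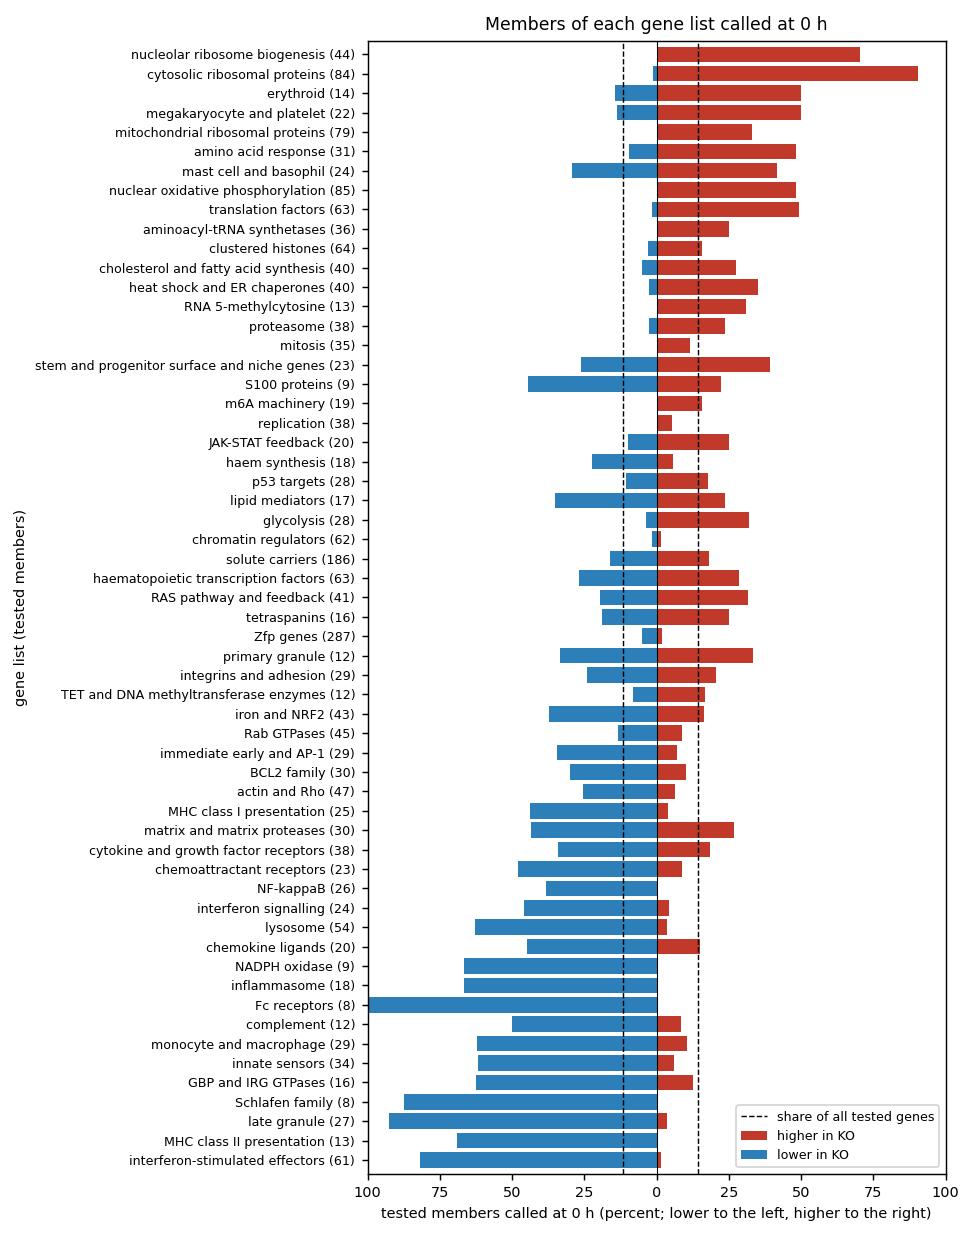
Share of tested members of each gene list called higher (right, red) or lower (left, blue) in KO cells at 0 h, for lists with at least 8 tested members, ordered by median log2 change. Dashed lines mark the shares among all tested genes, 14.3% higher and 11.5% lower, and numbers in brackets give the tested members.

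Interferon-stimulated genes formed the other large group of decreases. Of 61 tested antiviral effectors, 50 fell and 1 rose, and the list median was -1.21. Isg15, a ubiquitin-like modifier, had 67.5 and 82.6 TPM in WT and 8.39 and 12.2 TPM in KO cells (-2.76 ± 0.45, adjusted p = 0.000791). Ifit1, which binds viral RNA with an unmethylated cap, had 15.3 and 19.8 TPM in WT and 1.83 and 1.06 TPM in KO cells (-2.93 ± 0.19). The oligoadenylate synthetase Oas2 had 27.7 and 31.0 TPM in WT and 3.75 and 3.99 TPM in KO cells. Protein kinase R (Eif2ak2) fell less, from 34.1 and 40.5 to 23.7 and 23.2 TPM (-0.64 ± 0.12).

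The member that rose was Ifitm1, an interferon-induced membrane protein, with 58.4 and 48.2 TPM in WT and 227 and 215 TPM in KO cells (2.04 ± 0.11, adjusted p = 6.96e-08). The promoters of Isg15 and Ifit1, which fell, and of Ifitm1 are shown as the coding strand 5′ to 3′, 250 bases before to 50 after the RefSeq start (GRCm38.p6). Capitals mark, on either strand, 2 GAAA blocks with 2 bases of any kind between them, a core of the interferon-stimulated response element. Isg15 lies at chr4:156200769-156201068 on the minus strand, Ifit1 at chr19:34640639-34640938 on the plus strand and Ifitm1 at chr7:140967826-140968125 on the plus strand.
Isg15: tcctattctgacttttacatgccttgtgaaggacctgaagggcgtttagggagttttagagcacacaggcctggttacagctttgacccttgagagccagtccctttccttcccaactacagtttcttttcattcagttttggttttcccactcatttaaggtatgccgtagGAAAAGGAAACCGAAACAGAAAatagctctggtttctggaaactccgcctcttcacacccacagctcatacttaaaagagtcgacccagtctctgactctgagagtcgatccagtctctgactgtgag
Ifit1: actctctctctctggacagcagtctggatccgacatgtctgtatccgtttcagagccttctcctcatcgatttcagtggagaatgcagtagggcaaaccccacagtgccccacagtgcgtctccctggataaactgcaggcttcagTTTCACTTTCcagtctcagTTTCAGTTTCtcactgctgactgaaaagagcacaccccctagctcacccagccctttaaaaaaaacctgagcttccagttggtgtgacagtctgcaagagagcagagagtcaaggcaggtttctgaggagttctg
Ifitm1: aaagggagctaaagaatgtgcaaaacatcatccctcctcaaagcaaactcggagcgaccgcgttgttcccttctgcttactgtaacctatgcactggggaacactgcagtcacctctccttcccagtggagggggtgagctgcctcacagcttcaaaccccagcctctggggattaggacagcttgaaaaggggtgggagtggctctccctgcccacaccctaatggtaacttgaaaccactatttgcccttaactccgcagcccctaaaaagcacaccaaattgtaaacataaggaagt
Isg15 has 3 overlapping matches, the first starting 78 bases before the start, Ifit1 has 2, at 104 and 85 bases, and Ifitm1 has 0 in this window. Of the effectors with an entry, 23 of 48 (47.9%) held the motif, against 4.01% of tested genes, 8.64% of the genes called lower and 4.25% of those called higher. The other lists searched ranged from 0% (late granule genes) to 81.8% (guanylate-binding and IRG GTPases). Cytosolic ribosomal protein genes, which mostly rose, held it in 11.3%. No binding was measured.

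Signalling genes of the pathway were lower in 11 of 24 tested members and higher in 1. Irf7, the transcription factor that amplifies type I interferon expression, had 59.9 and 63.8 TPM in WT and 8.57 and 9.79 TPM in KO cells (-2.63 ± 0.14, adjusted p = 9.43e-08). Among other transcription factors of the response, Stat2 fell from 29.9 and 32.6 to 12.93 and 13.99 TPM and Irf9 from 31.1 and 39.4 to 17.6 and 18.3 TPM, although Irf9 was not called without WT replicate 2 (adjusted p = 0.0744). The receptor chains Ifnar1 (-0.31) and Ifnar2 (-0.22) and the kinases Jak1 (0.02) and Jak2 (0.06) were not called, but Ifnar2 was called lower without WT replicate 1 (-0.38, adjusted p = 0.0333) and was -0.07 without WT replicate 2. Ifnar1 was -0.18 without WT replicate 2. Socs1, a feedback inhibitor of JAK kinases, was the member that rose, from 19.5 and 23.3 to 53.6 and 46.9 TPM (1.20 ± 0.22, adjusted p = 0.00151).

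Other interferon-inducible families moved with the effectors. Of 16 guanylate-binding and IRG GTPases 10 fell, among them Gbp2 (20.07 and 21.5 against 4.89 and 5.40 TPM), and 2 rose, Gbp2b (1.49) and Ifi47 (0.37). The call of Ifi47 was lost without WT replicate 1 (adjusted p = 0.0775), KO replicate 1 (0.0918) or KO replicate 2 (0.101). Of 8 Schlafen genes 7 fell. MHC class II presentation genes fell in 9 of 13 tested members, with a median of -1.20. Cd74, the invariant chain, had 368 and 415 TPM in WT and 189 and 191 TPM in KO cells, and H2-Eb1, a class II beta chain, had 8.08 and 9.27 TPM in WT and 1.67 and 2.11 TPM in KO cells. Among 25 MHC class I genes 11 fell, and the changes of the classical heavy chains were small (H2-D1 -0.37, H2-K1 -0.30), while B2m, their common light chain, fell from 2494 and 2646 to 1510 and 1448 TPM. Nlrc5, the transactivator of class I genes, fell from 5.79 and 7.42 to 2.38 and 1.81 TPM.

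**Figure D4:**
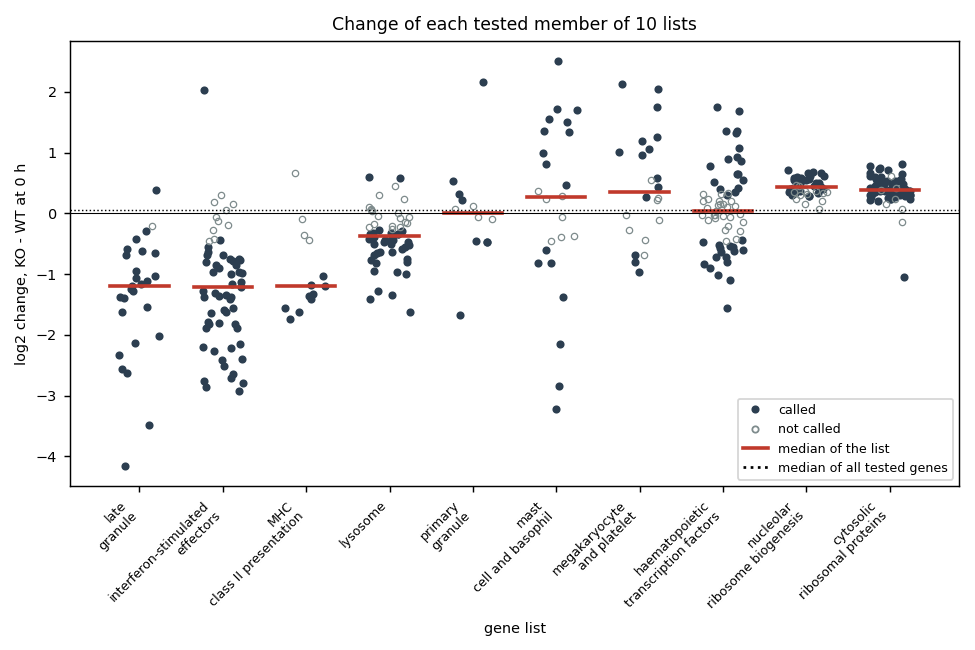
Log2 change (KO minus WT at 0 h) of each tested member of 10 gene lists, filled where called and open where not, with the list median (red bar) and the median of all tested genes (dotted line, 0.06). The called members of the first 3 lists lie below 0 except Adam8 and Ifitm1, the called members of the ribosomal and nucleolar lists lie in a narrow band above it except Rps4l, and the primary granule, mast cell and transcription factor lists spread to both sides.

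The title of the series names stemness and homing, and genes of adhesion and migration were examined for that reason. Among 20 chemokine ligands 9 fell and 3 rose, against 11.5% and 14.3% of all tested genes. Ccl5 had 129 and 113 TPM in WT and 29.6 and 30.0 TPM in KO cells (-1.98 ± 0.12), and Cxcl10, an interferon-inducible chemokine, had 15.2 and 12.7 TPM in WT and 3.93 and 3.22 TPM in KO cells. Of 23 chemoattractant receptors 11 fell and 2 rose. Cxcr4, the receptor that retains haematopoietic cells in bone marrow through CXCL12, had 96.9 and 122 TPM in WT and 71.3 and 68.1 TPM in KO cells (-0.63 ± 0.14, adjusted p = 0.00585). Its call was lost without WT replicate 2 (adjusted p = 0.0597) and without KO replicate 2 (adjusted p = 0.0508). The formyl peptide receptor Fpr2 fell from 26.1 and 37.9 to 7.55 and 6.0 TPM. In both receptors every KO library lay below both WT libraries, as in all 1278 genes called lower and in 2803 of 11152 tested genes.

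Integrins moved in both directions, with 6 of 29 adhesion genes higher and 7 lower, against 14.3% and 11.5% of all tested genes. The alpha chain of the platelet fibrinogen receptor, Itga2b, had 6.27 and 6.19 TPM in WT and 31.1 and 30.4 TPM in KO cells (2.13 ± 0.09, adjusted p = 1.41e-08), and its partner Itgb3 rose from 9.80 and 11.3 to 22.7 and 23.2 TPM. Itgb7 rose from 20.19 and 23 to 48.7 and 47.1 TPM. The myeloid integrin chain Itgam, which encodes CD11b, fell from 321 and 377 to 169 and 166 TPM, and the hyaluronan receptor Cd44 fell by 0.83 on the log2 scale. Of genes known for homing, the P-selectin ligand Selplg (-0.19) and the integrin chain Itga4 (0.11) were not called.

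Of 16 tetraspanins 4 rose and 3 fell, and 2 rose when WT replicate 1, KO replicate 1 or KO replicate 2 was left out, while 1 fell without KO replicate 2. Tspan13 had 2.27 and 2.90 TPM in WT and 9.54 and 8.95 TPM in KO cells (1.52 ± 0.21, adjusted p = 0.0002), whereas Cd9 fell from 200.4 and 227 to 115 and 104 TPM. Matrix genes were called in both directions, 8 of 30 higher and 13 lower. For tetraspanins and matrix genes alike, the shares over all tested genes were 14.3% higher and 11.5% lower. The basement membrane collagen Col18a1 had 2.59 and 3.61 TPM in WT and 17.8 and 18.2 TPM in KO cells, and the membrane-bound matrix metalloprotease Mmp14 had 7.45 and 7.34 TPM in WT and 1.46 and 1.47 TPM in KO cells.

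Haematopoietic transcription factors changed in both directions, 18 of 63 higher and 17 lower, and 9 were lower without WT replicate 2, KO replicate 1 or KO replicate 2. Rises included factors known from stem cells and from the erythroid, megakaryocytic and mast cell branches. Gata2 had 21.5 and 25.02 TPM in WT and 59.4 and 61.9 TPM in KO cells (1.35 ± 0.15, adjusted p = 4.37e-05). Gfi1b, a transcriptional repressor that acts within the erythroid and megakaryocytic branches, rose from 3.83 and 3.42 to 15.6 and 13.4 TPM. Meis1, a cofactor of HOX proteins in leukemia, rose from 0.26 and 0.46 to 3.86 and 2.88 TPM. Tal1 rose from 27.5 and 27.5 to 54.2 and 52.7 TPM. The falls included the monocytic and granulocytic factors Bcl6 (8.51 and 9.89 against 2.38 and 2.52 TPM), Klf5 (-1.10), Maf (-1.02) and Spi1, which encodes PU.1 (353 and 395 against 287 and 266 TPM), with Klf5 not called without WT replicate 2 or KO replicate 2. Runx1 (0.09), Irf8 (-0.14) and Fli1 (-0.05) were not called.

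Surface and niche genes of stem and progenitor cells rose in 9 of 23 tested members and fell in 6. Cd34, an adhesion sialomucin of progenitors, had 226 and 272 TPM in WT and 444 and 438 TPM in KO cells (0.83 ± 0.08, adjusted p = 1.48e-05). Adgrg1, the receptor GPR56 of stem cells and leukemia, had 68.9 and 77.4 TPM in WT and 198 and 194 TPM in KO cells. Prom1, another progenitor surface protein, fell by 1.40 and Bst1 by 1.60 on the log2 scale. Of 22 megakaryocyte and platelet genes 11 rose and 3 fell, with 6 higher without WT replicate 1 and 7 without KO replicate 1. The thrombin receptor F2r had 49.7 and 56.0 TPM in WT and 223 and 217 TPM in KO cells. Pf4, platelet factor 4, was not called (0.26) but was called higher without KO replicate 2 (0.48, adjusted p = 0.0251), and Gp9 was below 1 TPM in every library.

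Among 38 cytokine and growth factor receptors 13 fell and 7 rose, the latter count being 4 without WT replicate 1. Csf2ra, the specific chain of the GM-CSF receptor, had 143 and 150 TPM in WT and 26.9 and 26.6 TPM in KO cells (-2.41 ± 0.08, adjusted p = 2.09e-09). The shared beta chain Csf2rb was not called (0.17), and the IL-3 receptor alpha chain Il3ra rose by 0.46. For IL-6, which the medium contained, the binding chain Il6ra fell by 0.85 and the signalling chain Il6st rose by 0.78 on the log2 scale. The calls of Il3ra and Il6st were lost without WT replicate 1 (adjusted p = 0.113 and 0.063), that of Il3ra also without KO replicate 2 and that of Il6st without KO replicate 1. The G-CSF receptor Csf3r fell from 68.7 and 81.5 to 43.7 and 41.3 TPM. Over all tested genes, 14.3% were called higher and 11.5% lower.

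Genes of the RAS pathway and its feedback moved in both directions, beside 14.3% higher and 11.5% lower among all tested genes. Of 41 tested pathway genes 13 rose and 8 fell, with 8 higher without WT replicate 1 and 4 lower without WT replicate 2, and 8 higher and 4 lower without either KO library. Dusp4, a MAP kinase phosphatase induced by ERK, had 7.22 and 9.07 TPM in WT and 22.1 and 22.7 TPM in KO cells (1.36 ± 0.16, adjusted p = 5.72e-05). The ERK-induced factor Etv5 had 17.6 and 20.1 TPM in WT and 40.5 and 42.4 TPM in KO cells. Rasgrp1, an exchange factor that activates RAS, rose from 2.49 and 2.60 to 10.6 and 9.56 TPM. Nras itself was not called (63.1 and 66.5 against 73.3 and 68.6 TPM), nor was Dusp6 (-0.44).

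The BCL2 family list holds genes of cell death as well as of survival, among them Fas (-1.06). Of its 30 tested members 3 were higher and 9 lower, with fewer lower without WT replicate 2, KO replicate 1 or KO replicate 2. The paralogs Bcl2a1a, Bcl2a1b and Bcl2a1d, whose near-identical sequences may share reads, changed by -2.05, -1.88 and -1.91, and Bcl2a1b had 117 and 133 TPM in WT and 31.6 and 34.8 TPM in KO cells. Bcl2 rose from 4.65 and 5.27 to 9.92 and 9.91 TPM (0.87 ± 0.19, adjusted p = 0.00438). NF-kappaB genes were lower in 10 of 26 and immediate early genes in 10 of 29, each count being 4 without WT replicate 2, KO replicate 1 or KO replicate 2. Perp, a membrane protein induced by p53, rose from 75.6 and 86.7 to 242 and 241 TPM. Of the 28 p53 targets, 5 rose, Perp among them, 3 fell and 20 were not called. Of all tested genes, 14.3% were called higher and 11.5% lower.

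Genes of ribosomes and translation shifted upward by small amounts. Of 84 cytosolic ribosomal protein genes 76 rose and 1 fell, with a median of 0.38, and their sum was 166703 and 153265 TPM in WT and 211420 and 214935 TPM in KO libraries. Rpl36 had 2767 and 2381 TPM in WT and 4053 and 4528 TPM in KO cells (0.74 ± 0.10, adjusted p = 0.000246). Rps29, with a transcript of 461 nt, had 1977 and 927 TPM in the WT libraries and 2158 and 2496 TPM in the KO libraries, so WT replicate 1 lay nearer to the KO level than to the other WT library. Its call was lost without WT replicate 2 or either KO library. Rps4l, a low-level member, was the gene that fell (1.20 and 2.65 against 0.15 and 0.64 TPM), and was not called without WT replicate 2 or KO replicate 1. With the trend on transcript length removed, 67 were higher and the median was 0.31.

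Nucleolar genes of ribosome assembly rose in 31 of 44 tested members and fell in 0, with a median of 0.43, and 15 to 16 were higher without WT replicate 1 or either KO library. Dkc1, the pseudouridine synthase dyskerin, had 55.5 and 65.3 TPM in WT and 96.6 and 95.9 TPM in KO cells (0.67 ± 0.09, adjusted p = 0.000142). Of 85 nuclear-encoded respiratory chain and ATP synthase genes 41 rose, but 22 under median-ratio scaling, 27 with the length trend removed, and 19 and 17 rose without KO replicate 1 or 2. Mitochondrial ribosomal protein genes were higher in 26 of 79 (14 and 11 without KO replicate 1 or 2) and translation factors in 31 of 63 (15 without WT replicate 1 and 11 without either KO library). Eef1g, a subunit of elongation factor 1, rose from 622 and 696 to 978 and 996 TPM.

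Several biosynthetic groups rose in part. Of 31 genes of the amino acid response 15 rose, among them the serine synthesis enzymes Phgdh (113 and 138 against 204 and 207 TPM) and Psat1 (108 and 125 against 180 and 171 TPM), with 7 to 9 higher without WT replicate 1 or either KO library. Their regulator Atf4 was not called (0.22) and Ddit3, which encodes CHOP, fell by 0.56 on the log2 scale, a call lost without WT replicate 2 or either KO library. The neuronal-type glucose transporter Slc2a3 rose from 16.6 and 19.3 to 41.8 and 43.1 TPM (1.20 ± 0.10), with 9 of 28 glycolysis genes higher. Of 40 cholesterol and fatty acid genes 11 rose, led by the desaturase Scd1 (15.7 and 17.8 against 36.8 and 37.1 TPM), and 6 were higher without WT replicate 1 or KO replicate 1.

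Genes of the cell cycle and of chromatin were called about as often as all genes or less. Of 38 replication genes 2 rose, of 35 mitosis genes 4 rose and of 62 chromatin regulators 1 rose and 1 fell, against 14.3% higher and 11.5% lower overall. Of 287 Zfp zinc finger genes 5 rose and 15 fell. With 1 library left out these counts ranged from 0 to 3 for replication, from 0 to 6 for mitosis, from 0 to 4 in either direction for chromatin and from 1 to 14 for zinc finger genes. Of 13 other genes listed for writing, reading or erasing 5-methylcytosine in RNA 4 rose and 0 fell. Tet2, which fell, was counted with the TET enzymes and not in this list. The methyltransferase Nsun2 had 71.4 and 76.4 TPM in WT and 106 and 106 TPM in KO cells (0.52 ± 0.07, adjusted p = 0.000142), and the reader Ybx1 had 655 and 813 TPM in WT and 964 and 940 TPM in KO cells (0.38 ± 0.08, adjusted p = 0.00507, but 0.23 without WT replicate 1). Of 19 genes of the m6A machinery 3 rose by at most 0.42, and no call was made without either KO library.

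Most differences called at 0 h were also called in the libraries taken after actinomycin D. The log2 changes of a time rest on the libraries of that time. The calls came from the same fit, in which all times share each gene's spread. The calls at 4 h and 8 h are therefore not independent of those at 0 h. Of the 1593 genes higher at 0 h, 1154 (72.4%) were also called higher at 4 h, when 24.9% of all tested genes were, and 1266 (79.5%) at 8 h, when 37.3% were. Of the 1278 genes lower at 0 h, 939 (73.5%) were called lower at 4 h, against 13.7% of all genes, and 819 (64.1%) at 8 h, against 12.1%. In total 1770 genes, 1030 higher and 740 lower, were called in the same direction at all 3 times. Chil3 changed by -4.31 at 4 h and -3.75 at 8 h, Igfbp7 by 3.53 and 3.49, Cma1 by -3.63 and -4.15 and Irf7 by -3.31 and -3.50. These later values are shares among the transcripts that persisted while transcription was blocked.

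Some 0 h differences of regulators were smaller later, by a test of the difference between times (limma interaction, adjusted over all tested genes). Gfi1b changed by 1.74 at 0 h and 0.17 at 8 h (interaction adjusted p = 0.000767). Dusp4 changed by 1.36 and 0.35 (interaction adjusted p = 0.00866). The difference between times did not pass for Meis1 (1.68 and 0.75, interaction adjusted p = 0.069) or Sox4 (1.36 and 0.35, interaction adjusted p = 0.0527). Others grew, as for Slc2a3 (1.20 and 2.45, interaction adjusted p = 0.000398). Such an interaction was called in 39 genes between 0 h and 4 h and in 2222 between 0 h and 8 h.

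**Figure D5:**
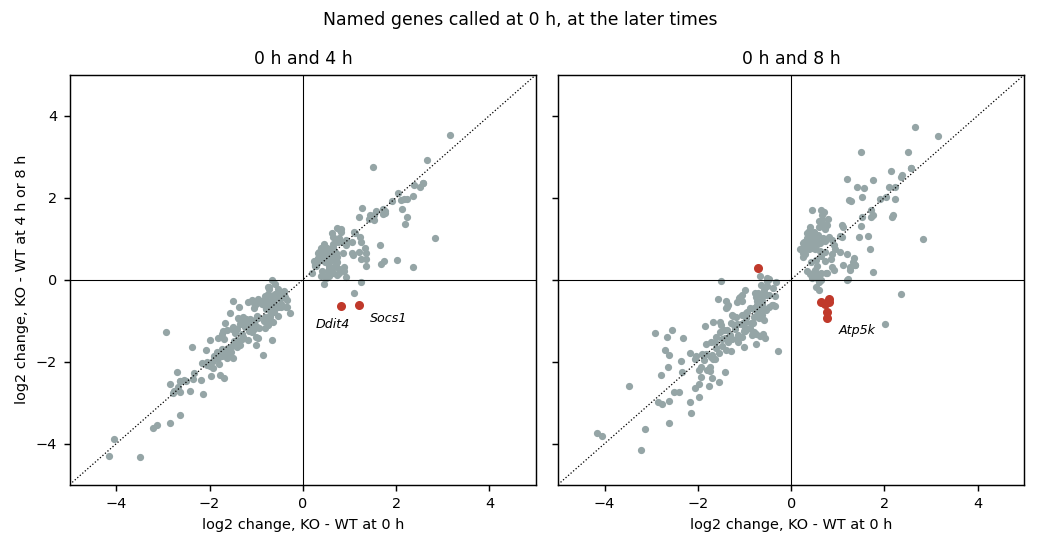
Log2 change (KO minus WT) of the 296 named genes called at 0 h, against their change at 4 h (left) and 8 h (right), 1 point per gene, with the line of equality dotted. Points in red are genes called in the opposite direction at the later time with a called interaction, 2 at 4 h and 7 at 8 h.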

How the data were processed

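TPM per gene were used as the authors deposited them, 1 column per library. They keep no depth, so no counting interval can be given. Per the submitters' processing notes, STAR, RSEM and the mm10 genome were used. Versions, annotation and counting strand: not given in the sources used here. Total RNA was isolated with TRIzol and made into stranded mRNA libraries, per the labels' protocols. Genes reaching 1 TPM in 2 or more of the 12 libraries entered a limma 3.58.1 model (R 4.3.3) of log2(TPM + 1) with 1 mean for each of 6 groups, 6 residual degrees of freedom and a trended empirical Bayes spread, tested on simulated data. Adjusted p are Benjamini-Hochberg values over all tested genes.

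The 64 gene lists were described by counts and medians, with no test of a list. Named genes were the 12 largest log2 changes each way (mean of at least 5 TPM, groups not overlapping), the 10 largest TPM differences each way and up to 5 called members of each list. Other genes were chosen after their values were seen. The comparison, its lists and motifs were chosen with earlier results of these data known. Positions and lengths came from GENCODE M21 (GRCm38) by symbol, matched for 97.3% of tested genes. Promoters came from RefSeq (GRCm38.p6), matched for 77.9%. RSEM may split reads of near-identical copies. The alternatives were median-ratio scaling, pseudocounts of 0.1 and 0.5, no filter on low values, a filter on the mean (5 TPM), the 0 h libraries alone, no trend, a 2-fold limit, a replicate block and leaving out each 0 h library. Removing a length trend and a robust spread were added after seeing the data.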

Additional observations from a re-analysis of the deposited data

Results flagged for a closer look

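Of the named genes, 8 had a KO against WT change that was called in opposite directions at 0 h and at a later time, with a called difference between the times (limma, adjusted over all tested genes). Socs1 was higher at 0 h by 1.20 and lower at 4 h by a log2 change of -0.63 (interaction adjusted p = 0.0264). Ddit4, a stress-induced inhibitor of mTORC1, was higher at 0 h by 0.82 and changed by -0.64 at 4 h (interaction adjusted p = 0.0123) and -0.47 at 8 h (0.00159). Psmb9, an interferon-inducible proteasome subunit, went from -0.71 at 0 h to 0.28 at 8 h (interaction adjusted p = 0.000623). The other 5 are short transcripts of ribosomal or respiratory proteins. Rps27rt went from 0.64 at 0 h to -0.54 at 8 h, Rps21 from 0.73 to -0.59, Rpl38 from 0.82 to -0.55, Rps29 from 0.78 to -0.79 and Atp5k from 0.78 to -0.93. Their longest transcripts have 374 nt (Rps27rt), 481 nt (Rps21), 457 nt (Rpl38), 461 nt (Rps29) and 563 nt (Atp5k). In all 5, WT replicate 1 at 0 h lay above WT replicate 2, for example at 7108 against 3632 TPM for Rps27rt. All 5 lost their 0 h call with a robust spread, and all but Rpl38 lost it under median-ratio scaling. Socs1, Ddit4 and Psmb9 kept their 0 h call in every alternative, leaving the 2-fold limit aside. The part of transcript length in these reversals was not tested.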

How the results depend on the processing

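The 2871 calls at 0 h stayed within 1.5 times under every alternative but the 2-fold limit and the loss of a KO library. With the 2-fold limit 527 were called, 168 higher and 359 lower, and 317 of these recurred in direction at 4 h and 308 at 8 h, against 2093 and 2085. With 1 library left out the calls ranged from 1710 to 2544, those higher from 835 to 1680, those lower from 846 to 1330, and those that recurred from 1354 to 1995 at 4 h and from 1310 to 2090 at 8 h. A group left with 1 library is assumed to vary like the others. The replicate numbers did not pair the libraries: deviations of same-numbered libraries correlated between -0.083 and 0.051 across group pairs, and with the replicate block 2801 genes were called (1553 higher, 1248 lower). Median-ratio scaling moved the median of all genes to 0.04. Of 296 named genes called at 0 h, 0 changed sign under the 15 alternatives. Only median-ratio scaling and removal of the length trend could have changed a sign, because the groups of every called gene did not overlap. Leaving the 2-fold limit aside, 211 kept their call throughout and 85 lost it in at least 1. Of the genes given as not called, Selplg, Ctsd, Ctsg and Ifnar2 were called lower without WT replicate 1, Csf2rb was called higher without WT replicate 2 and Pf4 without KO replicate 2. Median-ratio scaling called Atf4, Csf2rb, Ctsd, Dusp6 and Selplg, and removal of the length trend called Csf2rb, Ctsd, Ctsg, Dusp6, Ifnar1 and Selplg. Dusp6 was also called with a mean of at least 5 TPM and in the fit of the 0 h libraries alone. The fit of the 0 h libraries alone gives no values at 4 h and 8 h. Depth is unknown, so how far it limits low genes could not be assessed.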
